A study of Mus musculus with 8 samples.

Results

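The genes that copy and transcribe mitochondrial DNA, or that switch on those factors, were followed in mouse heart ventricles. They are Tfam, Tfb1m, Tfb2m, Polrmt, Polg, Polg2, Ssbp1, Nrf1, Gabpa and Gabpb1, 10 of the 54429 rows of the deposited expression table, found by an exact match of their symbols. All 10 were at or above 1 RPKM in every one of the 8 libraries, so none passed a filter on low values through 1 group alone. RPKM is the number of reads on a gene scaled to the length of the gene and to the total of the library. The mice were of a C57BL/6 line in which the genes of the estrogen-related receptors alpha (Esrra) and gamma (Esrrg) were floxed, in both groups. A virus (AAV) was injected on postnatal day 0 to 1, and both ventricles were taken on postnatal day 35. In 4 libraries, labelled AAV-Cre, the virus carried Cre recombinase behind the cardiac troponin T promoter (cTnT), which is active in heart muscle cells. In the other 4, labelled AAV-Luc, it carried luciferase. Other cells of the ventricle, which this promoter does not serve, are in the same RNA. Nothing in the labels ties a library to a mouse of its own. The p-values therefore cover only the spread among these libraries, some of which may be technical.

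Mitochondrial DNA is a small circle that encodes subunits of the respiratory chain and the RNAs needed to translate them. It is transcribed by a single-subunit RNA polymerase, POLRMT, which starts with the help of the DNA-bending and packaging protein TFAM and the initiation factor TFB2M. TFB1M, a relative of TFB2M, methylates the small ribosomal RNA of mitochondria. Replication needs the DNA polymerase gamma, made of the catalytic subunit POLG and the accessory subunit POLG2, together with the helicase Twinkle (Twnk) and the single-strand binding protein SSBP1. All of these proteins are encoded in the nucleus. NRF1 and GABP, whose DNA-binding subunit is GABPA and whose activating subunit is GABPB1, are transcription factors known to act on many of their promoters. PGC-1 coactivators (Ppargc1a, Ppargc1b, Pprc1) work with NRF1, GABP and the estrogen-related receptors. The comparison asks how these genes differ in young hearts given Cre to delete both receptors.

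Library totals were 48448859 to 61461679 reads, with little difference between the groups. The targeted gene Esrrg measured 218 ± 17.7 RPKM in AAV-Cre libraries against 113 ± 5.51 in AAV-Luc libraries (SD over 4), which goes against its label, and Esrra measured 39.1 ± 4.66 against 45.1 ± 3.66. Reads over a whole gene do not show whether floxed exons were lost, so every direction below is tied to the label alone. The whole table was shifted. The median log2 fold change of the 16385 genes tested was 0.41, and 73.3% of them passed an adjusted p of 0.05 (limma), 64.4% as higher under the AAV-Cre label and 8.87% as lower. After each library was centred on its median, 45.9% passed, 21.8% as higher and 24.1% as lower. All 10 markers of heart muscle cells were present, 4 higher and 5 lower, at sums of 22140 to 26100 RPKM in AAV-Cre and 26540 to 30510 in AAV-Luc. Of 8 fibroblast markers, 8 were higher, with sums of 1389 to 2230 against 587 to 675 RPKM, and of 8 macrophage markers 7 were, with sums of 329 to 433 against 167 to 181. Of 8 endothelial markers 2 were higher, with sums of 496 to 586 against 378 to 524. Of 8 pericyte and smooth muscle markers 5 were higher and 2 lower, with sums of 1468 to 1839 against 319 to 433. The log2 fold changes of these 8 ran from -0.48 to 3.25 (median 0.62). These marker counts are as deposited. After centring, 0 heart muscle markers were higher and 6 lower, and 7 fibroblast markers were higher and 0 lower. The counts were then 7 and 1 for macrophage, 1 and 6 for endothelial, and 4 and 3 for pericyte and smooth muscle markers. The atrial light chain Myl7 was highest in AAV-Cre library 3 (113 RPKM, against 41.7 to 52.8) and AAV-Luc library 2 (26.2, against 2.95 to 9.88), and without these 2 libraries the counts of the 10 genes given below were the same. All 4 atrial markers that could be tested were higher in AAV-Cre, with list sums of 4664 to 10240 against 103 to 222 RPKM. The natriuretic peptide gene Nppa alone gave 4547 to 10134 of the former and 94.3 to 169 of the latter, and the atrial growth factor Bmp10 was at 0.22 RPKM or less in every library. The part of these cell type markers in the results below was not tested. In such bulk RNA, fewer cells of a type and less RNA per cell cannot be told apart.

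As deposited, 9 of the 10 genes passed, beside 73.3% of all genes. Tfam and Tfb2m fell in the libraries labelled AAV-Cre, 7 rose and Polrmt did not pass the threshold. With each library centred on its median, none of the 10 was higher (limma, and none at an unadjusted p under 0.05 either), and 4 were lower, beside 24.1% of all genes lower and 45.9% called in either direction, namely Tfam, Tfb2m, Polrmt and Gabpa. A share of 7 in 10 higher as deposited is near the 64.4% of all genes. The 2 lower stand beside 8.87%, a count too small to read as more than that share. The fold changes of Polg, Polg2, Nrf1, Gabpb1 and Tfb1m lay within 0.05 of the median of all genes on the log2 scale. Limma fitted to reads rebuilt from the RPKM values gave the same counts, 7 higher and 2 lower. In 7 of the 10 genes the groups did not overlap, beside 66.1% of all genes.

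**Figure D1:**
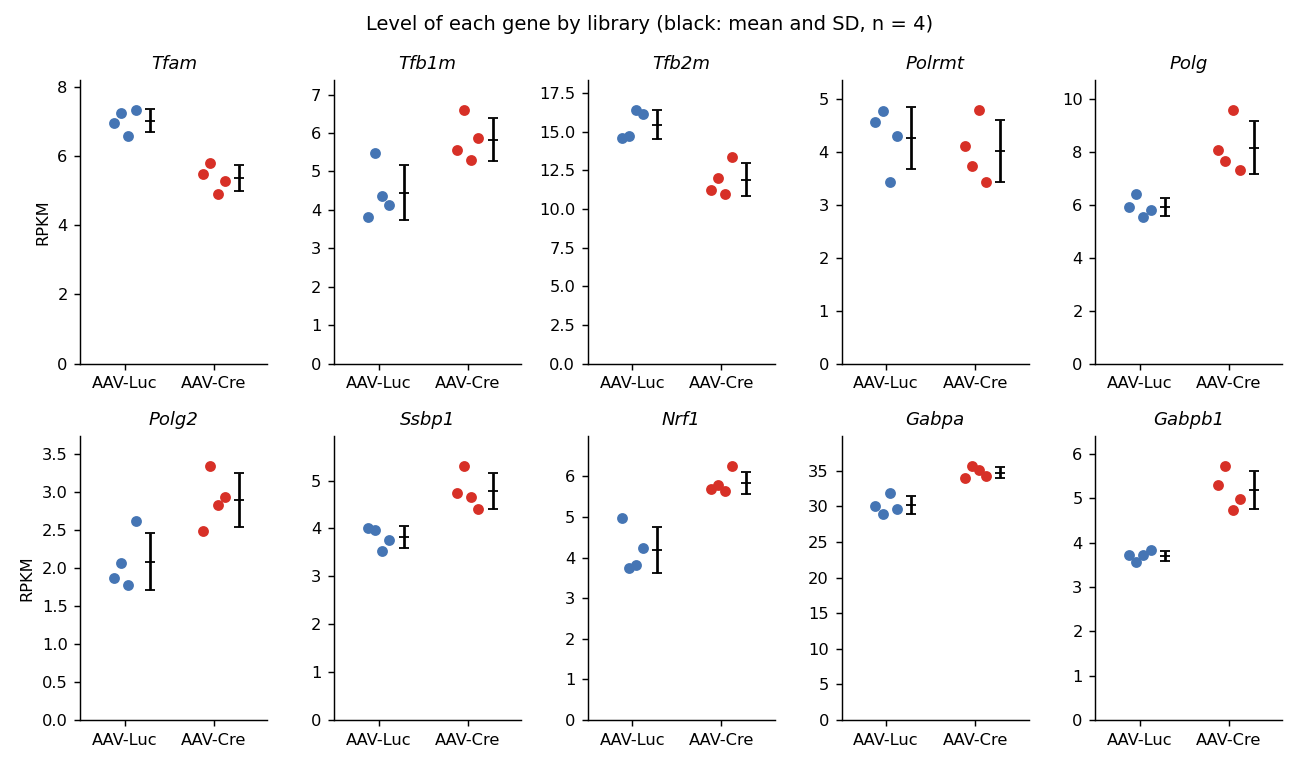
Level in RPKM (vertical axes, each from 0) of the 10 genes in the 4 AAV-Luc (blue) and 4 AAV-Cre (red) libraries, with the mean and SD in black. Tfam and Tfb2m lie lower in every AAV-Cre library than in any AAV-Luc library, Polrmt overlaps, and 5 genes lie higher without overlap.

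The initiation machinery of mitochondrial transcription held both genes that fell. Tfam, the packaging and transcription factor on chromosome 10 from 71225464 to 71238280 (mm10, minus strand), measured 5.49, 5.81, 4.90 and 5.28 RPKM in AAV-Cre libraries 1 to 4. In AAV-Luc libraries 1 to 4 it measured 6.95, 7.23, 6.59 and 7.33 RPKM. Every AAV-Cre value lay under every AAV-Luc value. The means were 5.37 ± 0.38 and 7.02 ± 0.33 RPKM (SD, n = 4 each), a ratio of 0.76, with a log2 fold change of -0.36 (SE 0.07, limma adjusted p = 0.0016) that was -0.77 after centring (adjusted p = 1.4e-05). All fold changes were taken after adding 0.5 to the RPKM, so that those of low genes are understated.

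Tfb2m, the initiation factor on chromosome 1 from 179528055 to 179546267 (minus strand), behaved alike. Its levels were 11.2, 12, 11 and 13.3 RPKM in AAV-Cre and 14.6, 14.7, 16.4 and 16.1 RPKM in AAV-Luc. The groups did not overlap, and among the tested genes 7.67% were lower without overlap. Tfb2m fell by 0.37 on the log2 scale (SE 0.08, limma adjusted p = 0.0021), and by 0.78 after centring. The pseudogene Gm1818 is 99.3% identical to Tfb2m over 1187 bases, so some reads could be assigned to either row. Gm1818 held 181 to 301 reads per library, against 1402 to 2371 on Tfb2m, and did not pass the threshold (3.26 ± 0.30 against 3.88 ± 0.51 RPKM, adjusted p = 0.083).

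Polrmt, the polymerase itself, on chromosome 10 from 79736123 to 79746581, was the gene of the set with no call as deposited. It measured 4.10, 3.73, 4.78 and 3.42 RPKM in AAV-Cre and 4.56, 4.76, 3.42 and 4.30 in AAV-Luc. The highest value of all was AAV-Cre library 3 and the lowest AAV-Luc library 3, so the groups overlapped widely. On the log2 scale the groups differed by -0.08 (SE 0.12, limma adjusted p = 0.58), but by -0.49 after centring, where it passed (adjusted p = 0.0059). No direction was shown as deposited. The centred value is relative to the median of all genes, which stood at 0.41 as deposited, so the call depends on the scale.

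Tfb1m, the ribosomal RNA methyltransferase on chromosome 17 from 3519256 to 3557781, stood on the other side from its relative Tfb2m. It measured 5.56, 6.6, 5.29 and 5.88 RPKM in AAV-Cre and 3.83, 5.49, 4.37 and 4.13 in AAV-Luc. AAV-Luc library 2 was the only AAV-Luc value above an AAV-Cre one. As deposited Tfb1m rose by 0.36 on the log2 scale (SE 0.11, limma adjusted p = 0.015), but after centring its log2 fold change was -0.05 (adjusted p = 0.75). It rests on few reads, 327 to 527 per library. Of its annotated exon bases, 142 are also exon bases of Tiam2 on the opposite strand. All 142 lie in the Tfb1m transcript listed first in GENCODE M21, and 0 are shared with that of Tiam2. Tiam2, with 508 to 816 reads per library, went from 1.69 ± 0.11 to 2.26 ± 0.18 RPKM. The part of Tiam2 reads in the Tfb1m row was not tested.

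The replication genes Polg, Polg2 and Ssbp1 rose as deposited and none of the 3 passed after centring. Polg, the catalytic subunit on chromosome 7 from 79446231 to 79466362, measured 8.06, 7.66, 9.56 and 7.32 RPKM in AAV-Cre and 5.92, 6.38, 5.55 and 5.81 in AAV-Luc. The groups did not overlap, as in 58.4% of all genes tested on the higher side. Polg rose by 0.43 on the log2 scale (SE 0.09, limma adjusted p = 0.002), and stood at 0.02 after centring. Of its annotated exon bases, 8.6% are also exon bases of Fanci on the opposite strand, which went from 16.3 ± 1.88 to 23.6 ± 2.36 RPKM. The transcripts listed first in GENCODE M21 for Polg and Fanci share 0 bases. It is not known whether counting used strand.

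Polg2, the accessory subunit on chromosome 11 from 106768253 to 106779537, was the lowest of the 10 genes in both groups. It measured 2.48, 3.33, 2.82 and 2.93 RPKM in AAV-Cre and 1.87, 2.07, 1.77 and 2.61 in AAV-Luc. AAV-Luc library 4 exceeded AAV-Cre library 1, so the groups overlapped, and the values rest on 150 to 286 reads. The log2 fold change of 0.40 (SE 0.12, limma adjusted p = 0.014) was -0.01 after centring. Ssbp1, on chromosome 6 from 40471352 to 40484700, measured 4.75, 5.30, 4.65 and 4.41 RPKM in AAV-Cre and 4.01, 3.98, 3.53 and 3.76 in AAV-Luc. The groups did not overlap as deposited. The log2 fold change of 0.29 (SE 0.08, limma adjusted p = 0.0085) became -0.12 after centring (adjusted p = 0.20).

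The nuclear regulators Nrf1, Gabpa and Gabpb1 also rose as deposited, each without overlap. Nrf1, on chromosome 6 from 30047988 to 30153458, measured 5.69, 5.78, 5.63 and 6.25 RPKM in AAV-Cre and 4.96, 3.74, 3.82 and 4.23 in AAV-Luc, with a log2 fold change of 0.44 (SE 0.09, limma adjusted p = 0.0019). After centring it was 0.03. Gabpb1, the activating subunit of GABP, on chromosome 2 from 126627442 to 126676337, measured 5.31, 5.73, 4.74 and 4.99 RPKM against 3.73, 3.56, 3.72 and 3.83. Its AAV-Luc values were the tightest in proportion, at 3.71 ± 0.11 RPKM, and its log2 fold change of 0.43 (SE 0.08, limma adjusted p = 0.00067) was 0.02 after centring.

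Gabpa, the DNA-binding subunit on chromosome 16 from 84834925 to 84863779, measured 33.9, 35.6, 35.1 and 34.2 RPKM in AAV-Cre and 30.0, 29.0, 31.9 and 29.6 in AAV-Luc. It rose as deposited (log2 fold change 0.20, SE 0.06, limma adjusted p = 0.008) and was lower after centring (-0.21, adjusted p = 0.032). Neither call was firm. Under quantile normalization the lower call was lost (-0.16, adjusted p = 0.079), which left 3 of the 10 genes lower, and with the mitochondrial genome and haemoglobin rows left out the higher call was lost (0.13, adjusted p = 0.062). Gabpa starts close to Atp5j, a gene of ATP synthase on the opposite strand. Of the annotated exon bases of Gabpa, 397 are shared, 99 of them in the transcript whose length was used. With the Atp5j transcript listed first in GENCODE M21, that transcript shares 0 bases. Atp5j, with 9698 to 18094 reads per library, went from 434 ± 38.3 to 277 ± 9.84 RPKM. The part of Atp5j reads in the Gabpa row was not tested.

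**Figure D2:**
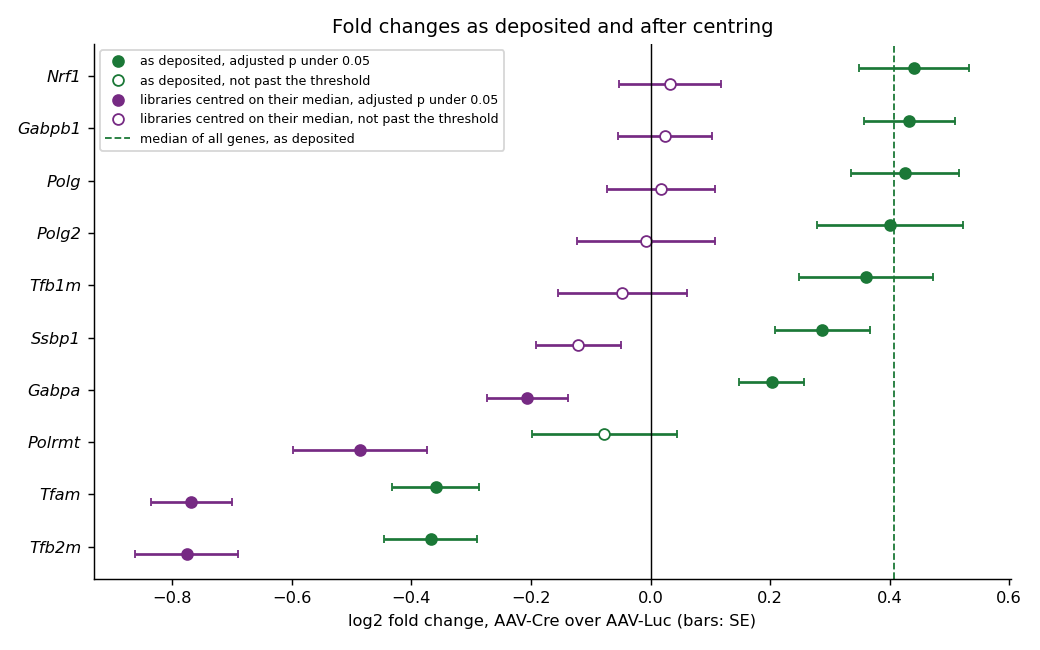
Log2 fold change of AAV-Cre over AAV-Luc (horizontal axis, bars are SE) of the 10 genes as deposited (green) and with libraries centred on their median (purple), filled where the adjusted p was under 0.05. The dashed line is the median of all genes as deposited, 0.41; Tfam, Tfb2m and Polrmt lie far to its left and 5 genes lie within 0.05 of it.

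The order of the levels changed around Tfam. In AAV-Luc the order was Gabpa (30.1 RPKM), Tfb2m (15.5), Tfam (7.02), Polg (5.92), Tfb1m (4.45), Polrmt (4.26), Nrf1 (4.19), Ssbp1 (3.82), Gabpb1 (3.71) and Polg2 (2.08). The first 4 were separated from their neighbours in every library, the ranges of neighbours from Tfb1m to Gabpb1 overlapped, and Polg2 stood below. In AAV-Cre, Gabpa (34.7 RPKM), Tfb2m (11.9) and Polg (8.15) led, with Polg ahead of Tfam. Tfam (5.37) lay among Nrf1, Tfb1m, Gabpb1 and Ssbp1 (5.84, 5.83, 5.19 and 4.78), where neighbouring ranges overlapped, ahead of Polrmt (4.01) and Polg2 (2.89). These levels per length depend on 1 transcript for each gene. For nearly all genes, the RPKM values are whole numbers of reads with the length of the transcript listed first in GENCODE M21. That length is 4398 bases for Ssbp1, whose annotated coding transcripts run from 579 to 4398 bases. The length used for Polrmt, 4288 bases, is that of a transcript with a retained intron. The coding transcripts of Polrmt run from 1287 to 3755 bases. With the median length of the coding transcripts, Ssbp1 in AAV-Luc would be at 15.8 RPKM and Tfam at 34.8, while Tfb2m would be at 15.4. The order between genes is thus not firm. The ratio of the group means of 1 gene does not depend on its length, although the fold changes do to a small extent through the added 0.5.

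Ratios of 2 genes within a library do not depend on how the library was scaled, so they separate the genes from the shift of the table. Of 8 ratios compared, 4 did not overlap between the groups, each at a two-sided exact permutation p = 0.0286, which is as low as this design goes. Adjusted over the 8 ratios this became 0.0572, so none passed the threshold of 0.05. The ratio of Tfb1m to Tfb2m was 0.496, 0.549, 0.482 and 0.441 in AAV-Cre and 0.262, 0.373, 0.266 and 0.256 in AAV-Luc, higher in 4 of 4 AAV-Cre libraries. The log2 difference was 0.78 (SE 0.14), and AAV-Luc library 2 lay apart from the other AAV-Luc libraries. The ratio of Tfam, which coats mitochondrial DNA, to Ssbp1, which coats its single strands, was 1.16, 1.1, 1.05 and 1.2 against 1.73, 1.82, 1.87 and 1.95. That is a log2 difference of -0.71 (SE 0.05) with a tight spread in both groups.

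The ratio of Gabpb1 to Gabpa, the 2 subunits of GABP, was 0.15 ± 0.012 in AAV-Cre and 0.123 ± 0.0053 in AAV-Luc (log2 difference 0.28, SE 0.06). The ratio of Tfam to the coactivator gene Ppargc1a went furthest, 0.0525 ± 0.0083 against 0.303 ± 0.040 (log2 difference -2.53, SE 0.15). Most of this lies in Ppargc1a, whose own log2 fold change was 2.12, against -0.36 for Tfam. The 4 other ratios overlapped. That of Polg2 to Polg, the subunits of polymerase gamma, was 0.360 ± 0.069 against 0.352 ± 0.065, a log2 difference of 0.03 with an SE of 0.19 (exact permutation p = 1.0). Those of Tfb2m and Tfam to Polrmt had log2 differences of -0.29 (SE 0.22, exact permutation p = 0.286) and -0.30 (SE 0.16, exact permutation p = 0.171), lower in AAV-Cre on average but within the spread of Polrmt. Nrf1 to Gabpa differed by 0.28 (SE 0.11, exact permutation p = 0.0857).

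**Figure D3:**
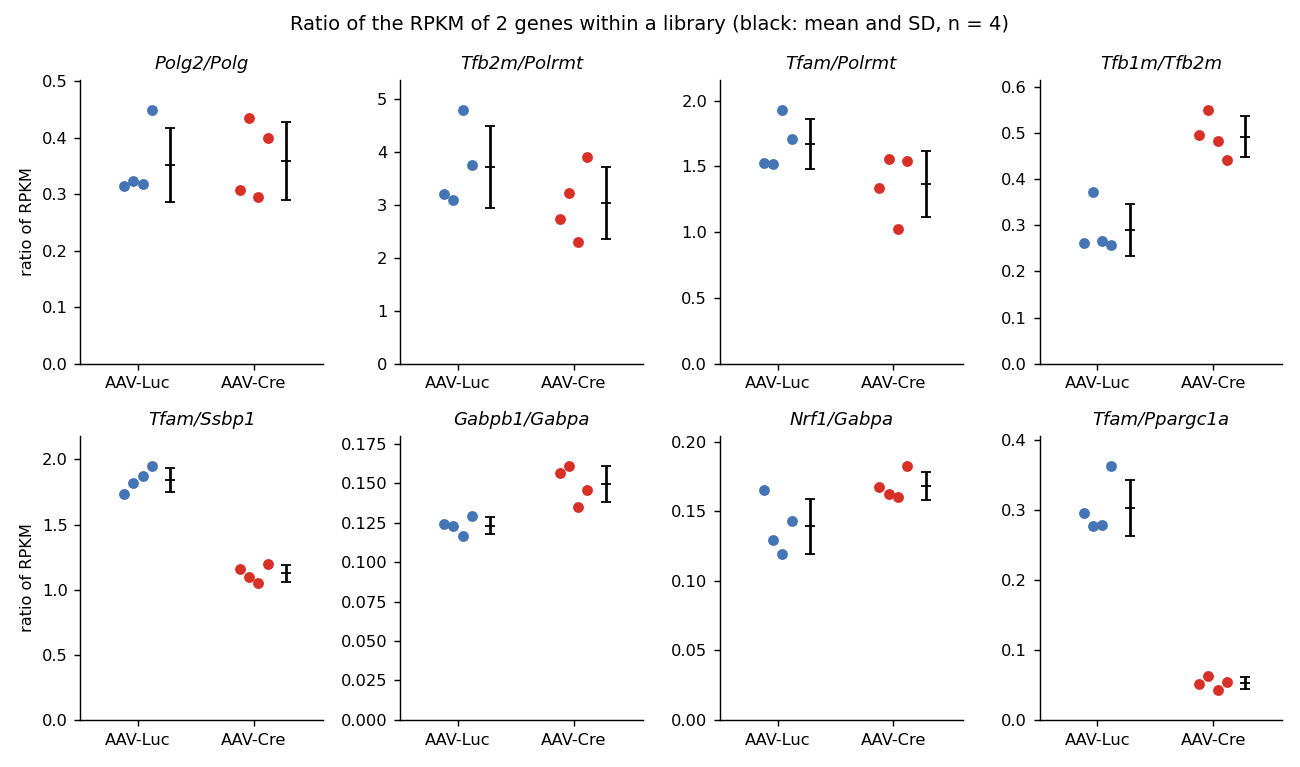
Ratio of the RPKM of 2 genes in the same library (vertical axes, each from 0) for 8 pairs, in AAV-Luc (blue) and AAV-Cre (red), with mean and SD in black. Tfb1m/Tfb2m, Tfam/Ssbp1, Gabpb1/Gabpa and Tfam/Ppargc1a do not overlap between groups; Polg2/Polg does throughout.

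Other genes of mitochondrial DNA upkeep were mixed. Of 23 listed, 22 could be tested, 10 were higher and 5 lower as deposited (64.4% and 8.87% of all genes), and 1 was higher and 10 lower after centring (21.8% and 24.1%). Their median was 0.24 on the log2 scale, beside 0.41 for all genes. Dna2 was too low to test. Twnk, the replicative helicase, fell. It measured 3.43, 3.50, 4.26 and 3.24 RPKM in AAV-Cre and 5.61, 6.84, 5.80 and 5.87 in AAV-Luc. The groups did not overlap, and its log2 fold change of -0.67 (SE 0.10, limma adjusted p = 0.00021) was larger in size than those of Tfam and Tfb2m, a difference that was not tested. Twnk shares 507 exon bases with Mrpl43 on the opposite strand, which measured 17.4 ± 1.46 against 17.9 ± 2.31 RPKM. The pyrimidine nucleotide carrier Slc25a33, the mitochondrial nuclease Endog and the inner membrane ATPase Atad3a fell as well, with log2 fold changes of -0.88, -0.84 and -0.60. The primase Primpol rose from 1.04 ± 0.11 to 2.14 ± 0.32 RPKM, also after centring (0.36, adjusted p = 0.03). The flap endonuclease Fen1, the nucleoside diphosphate kinase Nme4 and the carrier Slc25a36 rose as deposited by 0.64, 0.71 and 0.47 and did not pass after centring.

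Among genes for transcript elongation, termination and mitochondrial RNA metabolism, more fell than rose. Of 28 tested, 11 were lower and 7 higher as deposited (8.87% and 64.4% of all genes), and 17 were lower and 2 higher after centring (24.1% and 21.8%), with a median of -0.05 beside 0.41 for all genes. Lrpprc, which stabilises mitochondrial messenger RNAs, measured 24.1, 19.3, 22.3 and 18.6 RPKM in AAV-Cre and 40.1, 39.0, 38.9 and 41.1 in AAV-Luc (log2 fold change -0.91, limma adjusted p = 1.7e-05). Its partner in that complex, Slirp, went the other way, from 8.88 ± 0.43 to 14 ± 1.34 RPKM, and stayed higher after centring (0.22, adjusted p = 0.029). The elongation factor Tefm, which works with POLRMT, averaged 11.6 ± 0.93 RPKM in AAV-Cre and 14.9 ± 0.67 in AAV-Luc, and fell by 0.35 on the log2 scale (limma adjusted p = 0.0019), close in size to Tfam and Tfb2m. Fastkd1, the termination factor relative Mterf2 and the ribosomal RNA methyltransferase Mrm3 had log2 fold changes of -0.93, -0.80 and -0.71. The oligoribonuclease Rexo2 rose most, from 23.2 ± 1.58 to 44.4 ± 1.35 RPKM, also after centring (0.51). Mterf3, of the termination factor family, and the transfer RNA processing enzyme Elac2 rose as deposited by 0.41 and 0.36, but had 0.00 and -0.04 after centring and passed no threshold there.

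Genes listed as coactivators and partners of NRF1 and GABP rose in all 10 of 10 cases as deposited, beside 64.4% of all genes. Of these, 3 stayed higher after centring, beside 21.8%. Their median of 0.48 was near the 0.41 of all genes. Those 3 were the PGC-1 family. The list also held Gabpb2, Hcfc1 and the transcription factors Yy1, Creb1, Sp1, Myc and Nfe2l2, whose tie to NRF1 or GABP was not tested. Ppargc1a measured 108, 93.2, 115 and 97.0 RPKM in AAV-Cre and 23.6, 26.2, 23.8 and 20.2 in AAV-Luc, a ratio of 4.42. Ppargc1b and Pprc1 went from 8.33 ± 0.78 to 16.4 ± 1.47 and from 32.1 ± 4.71 to 59.9 ± 5.47 RPKM, with log2 fold changes of 0.53 and 0.49 after centring. Gabpb2, a second gene for the activating subunit of GABP, rose by 0.59 as deposited and did not pass after centring (0.19, adjusted p = 0.068). None of the 10 was lower, also at an unadjusted p under 0.05 and in limma on rebuilt reads.

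All 13 messenger RNAs of the mitochondrial genome, the products of this machinery, were lower as deposited and after centring, with a median of -0.78, beside 8.87% and 24.1% of all genes. Under quantile normalization only 4 were lower and 1 was higher, and with no filter on low values 6 were lower. Quantile normalization gives every library the same set of values, which leaves little room for a shared fall of the highest genes. They made up 13.6% ± 0.39 of the reads in AAV-Cre and 23.0% ± 1.5 in AAV-Luc (SD, n = 4 each). The light strand gene mt-Nd6 measured 5608 ± 317 against 12310 ± 1203 RPKM (log2 fold change -1.13), and the heavy strand gene mt-Cytb had -0.92. It is not known whether counting used strand, so the reads on these rows cannot be assigned to 1 strand.

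**Figure D4:**
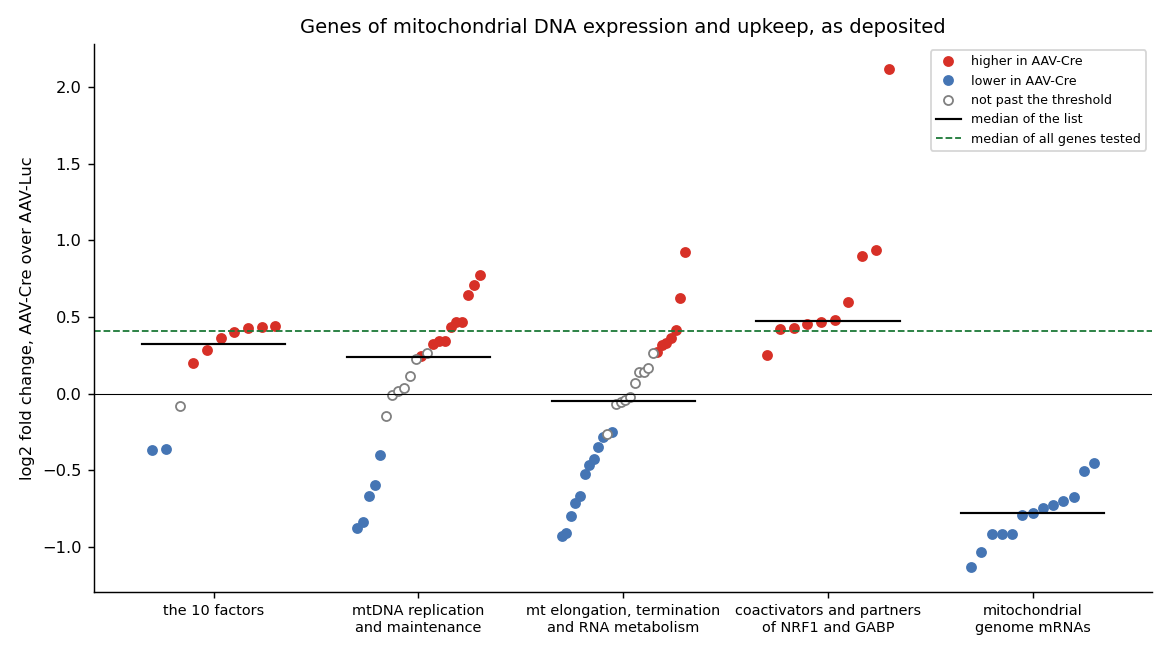
Log2 fold change as deposited (vertical axis) of each tested gene of the 10 factors and of 4 related lists, coloured where the adjusted p was under 0.05, with the median of each list (black) and of all genes tested (dashed). The mitochondrial genome lies wholly below 0, the coactivators wholly above, and the lists between them spread over both.

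Promoters were compared because the genes are described as common targets of NRF1 and GABP. All 10 genes had a RefSeq promoter window (GRCm38.p6, the assembly of mm10), of which 250 bases before the RefSeq start were searched on both strands. Nrf1 and Gabpb1 have 2 starts each, and a gene counts once if any of its windows holds the match, here and among all genes. The letters CCGGAAG, a site of ETS family proteins such as GABP, were found before the start of 6 of 10 genes and in 7.83% of 27025 genes with a window. The match lay within 50 bases of the start in 5 of the 6. The genes with it were Tfam, Polrmt, Polg, Polg2, Ssbp1 and Gabpa. In Tfam, Polg, Ssbp1 and Gabpa the RefSeq start lies inside the longer GENCODE gene span given above, so these matches fall within that span. The 6 genes are 1 that fell, 1 with no call and 4 that rose as deposited. After centring, Tfam, Polrmt and Gabpa were lower, and Polg, Polg2 and Ssbp1 did not pass. Of the genes without the match, Tfb2m was lower after centring and Tfb1m, Nrf1 and Gabpb1 did not pass. A link between the match and direction was not tested. The NRF1 core TGCGCA was found in Tfb2m and Polrmt, 2 of 10 against 7.36% of genes, and the GC box GGGCGG in 7 of 10 against 35.4%. The estrogen-related receptor core AAGGTCA was found in none of the 10 genes, against 4.7% of all genes, which says only that these letters are not there. Members had more G and C than promoters in general (median 59.6% against 52.4%), which the motif shares were not adjusted for. The 30 bases around each ETS match, written 5′ to 3′ along the strand that holds CCGGAAG (in capitals), show the short shared core and the different flanks:
Tfam (chr10:71238073-71238102, minus strand): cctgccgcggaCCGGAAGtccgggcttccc
Polrmt (chr10:79746607-79746636, plus strand): ttctgcgactgCCGGAAGcgctcttagggt
Polg (chr7:79466293-79466322, minus strand): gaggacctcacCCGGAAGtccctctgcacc
Polg2 (chr11:106779549-106779578, plus strand): agaccacgcccCCGGAAGagcgtcacccgc
Ssbp1 (chr6:40471410-40471439, plus strand): ggctccgtgcgCCGGAAGcgagccgctggc
Gabpa (chr16:84835019-84835048, minus strand): agctgagggacCCGGAAGcacttaccctcc

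The relatives Tfb1m and Tfb2m, whose ratio separated the groups, have no CCGGAAG before their starts. That says only that these exact letters are not there, and other forms of ETS sites were not searched for. The stretches below are shown along the strand of each gene with GC boxes in capitals, and the polymerase promoter follows with its NRF1 core and its ETS match (read on the other strand) in capitals:
Tfb2m (chr1:179546277-179546369, minus strand, the 93 bases before the start): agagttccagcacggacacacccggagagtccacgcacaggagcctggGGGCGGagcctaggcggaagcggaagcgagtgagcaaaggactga
Tfb1m (chr17:3557782-3558005, minus strand, 250 to 27 bases before the start): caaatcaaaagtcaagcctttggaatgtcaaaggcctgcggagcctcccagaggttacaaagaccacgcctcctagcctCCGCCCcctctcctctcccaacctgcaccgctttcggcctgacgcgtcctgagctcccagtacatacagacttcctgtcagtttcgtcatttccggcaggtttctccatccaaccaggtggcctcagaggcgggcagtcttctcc
Polrmt (chr10:79746582-79746831, minus strand, the 250 bases before the start): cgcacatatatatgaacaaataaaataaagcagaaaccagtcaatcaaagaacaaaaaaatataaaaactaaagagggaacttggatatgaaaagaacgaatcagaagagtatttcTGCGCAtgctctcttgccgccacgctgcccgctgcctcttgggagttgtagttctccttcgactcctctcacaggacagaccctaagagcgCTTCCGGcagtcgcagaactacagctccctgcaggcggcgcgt
The NRF1 core of Tfb2m lies further out, and is set in capitals in the 30 bases around it.
Tfb2m (chr1:179546437-179546466, minus strand): gcctccctcTGCGCAaccctcccggctggc

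**Figure D5:**
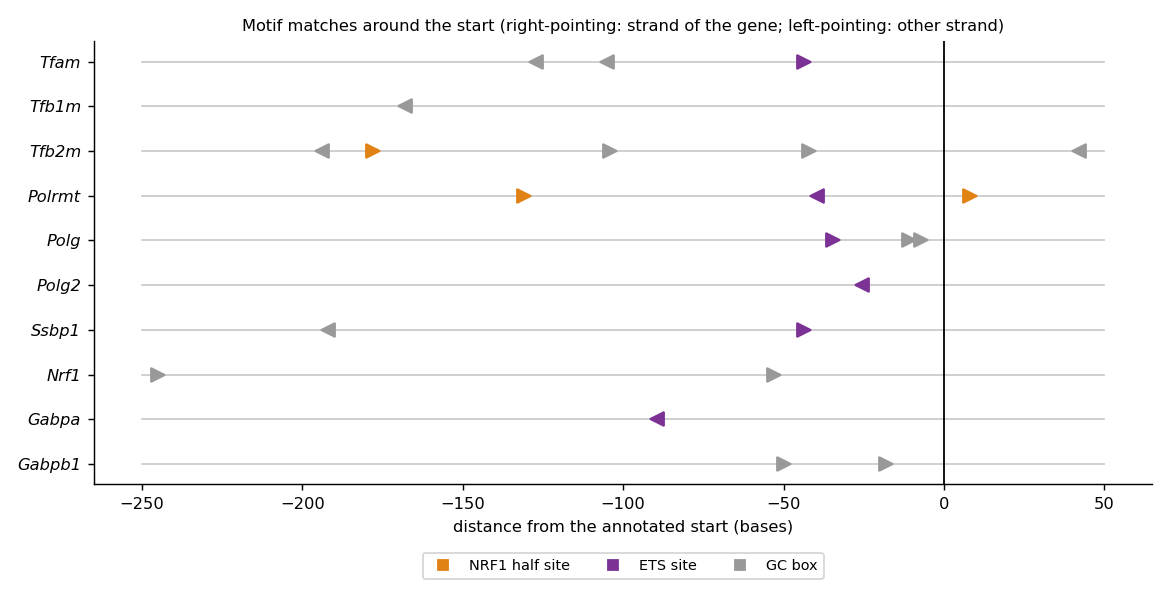
Position of motif matches from 250 bases before to 50 after the RefSeq start (horizontal axis, bases) of the 10 genes, with the first start shown where RefSeq has 2; triangles point along the strand of the match. The ETS matches (CCGGAAG, purple) of 5 genes fall within 50 bases before the start, and these exact letters are not found in Tfb1m, Tfb2m, Nrf1 and Gabpb1.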

How the data were processed

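The deposited values are RPKM per gene from paired-end RNA sequencing of poly(A)-enriched RNA, per the labels' protocols. Per the submitters' processing notes, the tools were STAR, FastQC 0.11, edgeR and Partek 6.6, with mm10 as build. The sources used here do not give the role of each, the annotation or the strand setting. In the 8 columns, headers name a group and no sample, so library numbers follow column order and are names only.

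Reads were rebuilt from the RPKM. With the length of an annotated transcript, each exon taken as end minus start, values were whole within 0.01 of a read in all 8 libraries for 98.2% of the annotated symbols above 0. Of those, 98.2% matched the transcript listed first in GENCODE M21. Among low values in genes with 1 transcript 74.4 to 77.9% were even numbers, so reads may have been counted singly and fragments be fewer.

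Genes with at least 1 RPKM in 4 libraries were tested with limma 3.58.1 (R 4.3.3) on log2(RPKM + 0.5), with a variance trend and Benjamini-Hochberg adjustment over all 16385 genes, threshold 0.05. The fit was tested on simulated data. Ratios were compared by exact permutation over 70 arrangements. Named genes outside the 10 were the 4 lowest and 4 highest fold changes past the threshold in each of 3 lists, with Twnk, Tefm, Lrpprc, Ppargc1a, mt-Nd6 and mt-Cytb. The members and lists were chosen with earlier results of these data known. Gm1818, Atp5j, Fanci, Tiam2, Mrpl43, Myl7, Nppa and Bmp10 are named beside results they touch. Hcfc1, Yy1, Creb1, Sp1, Myc and Nfe2l2 are named only as members of their list.

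Alternatives were other pseudocounts, filters, scalings and variance models, leaving out each library, and, chosen after seeing the data, limma voom on rebuilt reads and leaving out the 2 libraries with the most Myl7.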

Additional observations from a re-analysis of the deposited data

Results flagged for a closer look

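Of 88 sets of 4 values examined, 3 held a library far from the other 3 of its group. Chance flags about 1 in 20 such sets, and these sets share genes and libraries. The ratio of Tfb1m to Tfb2m was 0.373 in AAV-Luc library 2, against 0.256 to 0.266 in the other AAV-Luc libraries. The ratio of Polg2 to Polg was 0.449 in AAV-Luc library 4, against 0.316 to 0.324. Elac2 measured 5.18 RPKM in AAV-Luc library 3, against 6.71 to 6.92.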

How the results depend on the processing

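Tfam and Tfb2m stayed lower and past the threshold under all 19 alternatives each (log2 fold change -0.77 to -0.31 and -0.78 to -0.33), and the scale decided most other calls. With libraries centred on their median, 3578 genes were higher and 3949 lower, and of the 10 genes 0 and 4; with quantile normalization 3810 and 3838, and 0 higher and 3 lower of the 10. Centring and quantile normalization gave log2 fold changes of -0.047 and -0.055 for Tfb1m, -0.0078 and -0.039 for Polg2, -0.12 and -0.13 for Ssbp1, -0.21 and -0.16 for Gabpa, 0.017 and 0.015 for Polg, 0.032 and 0.030 for Nrf1, 0.024 and 0.014 for Gabpb1, -0.49 and -0.50 for Polrmt, -0.62 and -0.56 for Esrra, and -0.044 and -0.047 for Elac2. The counts of higher and lower genes were then 1 and 10 in both for mitochondrial DNA upkeep, and 2 and 17 in both for RNA metabolism. Coactivators higher were 3 and 4. Mitochondrial genome genes were 4 lower and 1 higher with quantile normalization, which gives every library the same set of values. They were 6 lower with no filter on low values. The cause of these changes was not tested. With a mean of at least 5 RPKM, which tests fewer genes, 6607 genes were higher, 4 of the 10 and 4 of the upkeep list. With mitochondrial genome and haemoglobin rows left out, Gabpa was at 0.13 (adjusted p = 0.062) and Esrra at -0.28 (adjusted p = 0.027). Library quality weights gave Esrra -0.22 (adjusted p = 0.036).

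Without 1 library, the 10 genes kept 7 higher and 2 lower, and Esrra ran from -0.26 (past the threshold without AAV-Cre library 3) to -0.14. Log2 differences of ratios ran from -0.070 to 0.15 for Polg2/Polg, 0.72 to 0.91 for Tfb1m/Tfb2m and 0.24 to 0.32 for Gabpb1/Gabpa. For Nrf1/Gabpa they ran from 0.21 to 0.37, reaching exact permutation p = 0.0286 without AAV-Luc library 1. The exact permutation p was 0.0571 for Tfb1m/Tfb2m without any 1 of the AAV-Cre libraries. It was also 0.0571 for Gabpb1/Gabpa without any 1 of the AAV-Luc libraries, so neither ratio stayed under 0.05. With 0.5 added to each RPKM, Polg2/Polg was at -0.025. With group medians, the exact permutation p was 0.0571 for Tfb1m/Tfb2m (0.89), Tfam/Ssbp1 (-0.71), Gabpb1/Gabpa (0.29) and Tfam/Ppargc1a (-2.44). That is the lowest p that a difference of medians can give here, so no ratio could pass the threshold in this setting. No paired analysis was possible because the columns carry no replicate number. Polg2 (150 to 286 reads per library) and Tfb1m (327 to 527) have the fewest reads of the 10 genes.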
